A study of Mus musculus with 4 samples.

Results

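Heat shock proteins and their DnaJ co-chaperones were examined in mouse epidermis, as the 69 genes whose symbol begins with Hspa, Hspb, Hspd, Hspe, Hsph, Hsp90 or Dnaj, leaving out Hspbap1 and Hspbp1, among the 17958 genes of the deposited table. The rule reads symbols alone. Of the 4 libraries, 2 are titled IL-36Ra-cKO, with IL-36Ra knockdown in their genotype field, and they are set against 2 titled IL-36Ra fl/fl, whose genotype field reads WT. IL-36Ra, the product of Il36rn (Il1f5 in the table), blocks the receptor that IL-36 cytokines use, and fl/fl marks floxed alleles. All 4 libraries are labelled as untreated epidermal keratinocytes. The labels give no age, sex, strain or Cre driver, and they do not say whether a library is 1 animal or a pool.

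Chaperones of the Hsp70 and Hsp90 families bind unfolded or partly folded proteins and release them through cycles of ATP hydrolysis. DnaJ proteins (also called Hsp40s) carry a J domain that brings clients to Hsp70 and starts its ATP hydrolysis, Hsp110 proteins exchange the nucleotide, and small Hsps hold unfolded proteins in oligomers. Some members are made at all times, whereas others are induced by heat shock factor 1 (HSF1) through heat shock elements, and separate sets serve the endoplasmic reticulum and the mitochondria. In skin, Hspb1 is known as a keratinocyte chaperone that increases with differentiation.

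Several facts about the libraries bear on every value below. Total counts ran from 14622791 to 16490602. The keratinocyte list (12 genes, Krt5, Krt14, Krt1 and Krt10 among them) was summed in TPM (transcript abundance per length). It reached 28651 and 28794 TPM in the cKO-labelled libraries, against 32953 and 27485 TPM in the fl/fl libraries. Genes of dermis and fat were read in every library too. Dermal fibroblast genes summed to 1329 and 2503 TPM in the cKO-labelled libraries, against 1550 and 1720 TPM in the fl/fl libraries. Adipocyte genes summed to 1689 and 1694 TPM, against 754 and 1725 TPM, in the same order of groups. The targeted gene Il1f5 was still read in the cKO-labelled libraries, at 222 and 165 CPM (counts scaled to library size by the TMM method) against 254 and 203 CPM in the fl/fl libraries, so directions are between libraries as labelled. The 4 Y-linked genes in the table summed to 124 and 154 TPM in the cKO-labelled libraries, against 0.98 and 1.23 TPM in the fl/fl libraries, so apparent sex and genotype label cannot be told apart. In cKO replicate 2, hair follicle and shaft genes summed to 5.74 TPM and skeletal muscle genes to 2390.2 TPM. In the other libraries the hair sum was 2998 TPM (cKO replicate 1), 7487 TPM (fl/fl replicate 1) and 9382 TPM (fl/fl replicate 2), and the muscle sum was 81.8, 155 and 191 TPM in the same order. Erythroid genes summed to 203 and 1190.1 TPM in the cKO-labelled libraries, against 275 and 309 TPM in the fl/fl libraries. The 7 T cell genes read were all higher in both cKO-labelled libraries, and they summed to 62.2 and 69.1 TPM there, against 24.5 and 23.1 TPM in the fl/fl libraries. Whether these cells and tissues had a part in any difference given here was not tested. In whole tissue, fewer cells of a type and less RNA per cell cannot be told apart.

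The promoters of the members show which of them carry a heat shock element next to the start of transcription, and they are printed for the genes on which the results turn. RefSeq windows (build GRCm38.p6, an older build than the GRCm39 of the deposited values) were matched by gene ID for 56 of the 69 members, and the 250 bases before each start were searched on both strands. A pair of HSF1 recognition units reads GAANNTTC or TTCNNGAA, each of which is its own reverse complement. In the longer run of units, both pairs overlap and share either the TTC or the GAA between them. At least 1 of the pairs was found for 7 of the 8 matched heat-inducible members, namely Hspa1a, Hspa1b, Hspb1, Hsph1, Dnaja1, Dnaja4 and Dnajb4, and not for Dnajb1. It was found for 14.5% of all 27025 genes with a window, for 2 of 14 constitutive members, for 1 of 11 members of the endoplasmic reticulum and for 2 of 7 mitochondrial members. Of the remaining members, 2 of 6 other small Hsps and 0 of 10 tissue-restricted or unplaced ones had it. The longer run of 3 units was found in 0.466% of all 32851 windows and for 3 members. These were the constitutive Dnajb6 and the mitochondrial Hspd1 and Hspe1, and none of the 8 matched heat-inducible members had it. A match of letters is a description of the sequence and not evidence of binding. Among heat-inducible members with a pair that are not printed, Dnaja4 stood higher in both cKO-labelled libraries, Dnaja1 lower in both, and Dnajb4 overlapped. Dnajb1, without a pair, stood higher in both. The first 4 sequences below belong to heat-inducible genes that stood higher in both cKO-labelled libraries, and the fifth to the mitochondrial pair of Hspe1 and Hspd1. Each runs 5′ to 3′ on the gene's own strand and ends at the base before the start, and capitals mark the matches. Hsph1 has 2 listed starts, and its printed window was picked by the number of matches. The Hspa1a window lies at chr17:34972157-34972406, minus strand, Hspa1b at chr17:34959239-34959488, minus strand, Hspb1 at chr5:135887669-135887918, plus strand, Hsph1 at chr5:149636316-149636565, minus strand, and Hspe1 at chr1:55087898-55088147, plus strand.
Hspa1a: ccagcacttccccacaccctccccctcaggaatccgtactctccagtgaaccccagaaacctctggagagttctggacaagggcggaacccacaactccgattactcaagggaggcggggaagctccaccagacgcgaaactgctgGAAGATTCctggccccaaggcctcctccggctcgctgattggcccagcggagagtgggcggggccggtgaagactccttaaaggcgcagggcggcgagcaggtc
Hspa1b: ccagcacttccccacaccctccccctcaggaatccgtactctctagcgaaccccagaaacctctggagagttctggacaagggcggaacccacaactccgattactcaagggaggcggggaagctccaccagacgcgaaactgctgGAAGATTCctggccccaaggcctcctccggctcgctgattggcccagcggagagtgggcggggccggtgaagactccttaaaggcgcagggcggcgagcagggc
Hspb1: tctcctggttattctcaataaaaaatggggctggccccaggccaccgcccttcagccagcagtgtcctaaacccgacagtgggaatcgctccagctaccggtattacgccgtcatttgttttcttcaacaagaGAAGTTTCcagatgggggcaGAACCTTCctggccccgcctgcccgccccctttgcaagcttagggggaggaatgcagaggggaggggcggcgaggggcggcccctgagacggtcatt
Hsph1: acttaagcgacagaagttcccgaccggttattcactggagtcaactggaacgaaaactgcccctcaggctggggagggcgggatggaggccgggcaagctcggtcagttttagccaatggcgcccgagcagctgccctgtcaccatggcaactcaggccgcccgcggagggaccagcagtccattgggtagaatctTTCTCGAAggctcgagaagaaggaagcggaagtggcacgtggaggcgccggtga
Hspe1: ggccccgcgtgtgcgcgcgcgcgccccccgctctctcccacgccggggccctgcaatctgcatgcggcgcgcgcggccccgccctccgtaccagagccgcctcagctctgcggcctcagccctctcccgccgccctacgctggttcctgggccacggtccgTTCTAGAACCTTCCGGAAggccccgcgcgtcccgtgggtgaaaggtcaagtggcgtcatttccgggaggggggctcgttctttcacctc

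Hspa1a and Hspa1b, neighbouring copies of the inducible Hsp70 gene, were identical at 247 of these 250 bases (98.8%), and the match in each begins at position -104. The Hspb1 window holds 2 separate matches. The Hspe1 window holds the longer run on overlapping letters, and the same stretch lies upstream of Hspd1, which is transcribed the opposite way. For the endoplasmic reticulum, the stress element, which ATF6 is known to use, was searched on both strands as CCAAT and CCACG with 9 free bases between them. It was found in 0.113% of all 32851 windows and in the windows of Hspa5, Hsp90b1 and Dnajc3. It was not found in that of Dnajb9. The windows of Hspa5 (chr2:34771840-34772089, plus strand) and Dnajb9 (chr12:44210069-44210318, minus strand) are printed because the values of Dnajb9 and of its partner Hspa5 differ in the results, with the stress element in capitals.
Hspa5: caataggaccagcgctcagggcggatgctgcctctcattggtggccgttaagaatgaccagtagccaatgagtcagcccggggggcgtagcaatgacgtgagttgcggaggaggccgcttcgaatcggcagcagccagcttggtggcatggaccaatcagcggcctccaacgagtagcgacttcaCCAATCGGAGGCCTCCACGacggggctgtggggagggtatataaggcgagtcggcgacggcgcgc
Dnajb9: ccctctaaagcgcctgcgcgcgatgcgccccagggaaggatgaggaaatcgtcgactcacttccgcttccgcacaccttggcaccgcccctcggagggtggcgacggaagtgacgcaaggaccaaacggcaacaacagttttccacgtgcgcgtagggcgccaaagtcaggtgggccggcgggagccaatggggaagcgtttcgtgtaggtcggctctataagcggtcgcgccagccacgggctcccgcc

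Per length, the constitutive Hsp70 gene Hspa8 was the most abundant member, at 1429 ± 117 TPM in the cKO-labelled libraries, against 1417 ± 122 TPM in the fl/fl libraries (SD, n = 2 each here and below). Over all 4 libraries it ranked 118 among the 17958 genes. Hspb1 followed at 651 TPM over all 4 libraries, then the constitutive Hsp90 gene Hsp90ab1 at 629 TPM, the endoplasmic reticulum Hsp70 Hspa5 (BiP) at 395 TPM, the mitochondrial co-chaperonin Hspe1 at 341 TPM, the endoplasmic reticulum Hsp90 Hsp90b1 (Grp94) at 332 TPM and the inducible Hsp90 Hsp90aa1 at 290.1 TPM. Neighbours in that order differed by less than their spread in several cases: Hspb1 ran from 334 to 1147 TPM over the libraries, across the range of Hsp90ab1. All 69 members together took 0.668% and 0.607% of the TPM in the cKO-labelled libraries, against 0.65% and 0.621% in the fl/fl libraries, so the total overlapped between groups. The 9 heat-inducible members summed to 1892 and 1491 TPM in the cKO-labelled libraries against 1210.0 and 1013 TPM in the fl/fl libraries. That gap rested on Hspb1: the other 8 members summed to 745 and 715 TPM in the cKO-labelled libraries against 876 and 667 TPM in the fl/fl libraries, which overlapped. The 13 members of the endoplasmic reticulum summed to 862 and 869 TPM against 1164 and 1032 TPM, and the 10 mitochondrial members to 788 and 806 TPM against 938 and 898 TPM, in the same order of groups. On this scale the median of all genes was lower too, at -0.16 on log2(TPM + 1). On CPM the groups did not overlap for 6 mitochondrial members higher and 3 lower. In the endoplasmic reticulum they did not overlap for 3 higher and 6 lower. Over all genes tested these shares were 34.8% higher and 32.9% lower.

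Of the 69 members, 64 passed the filter on low counts and 5 did not. No member passed an adjusted p of 0.05 in the edgeR quasi-likelihood test with Benjamini-Hochberg adjustment over 14459 genes. Over all genes 4 passed, all higher in the cKO-labelled libraries (0.0277%), and 0 were lower (0.0%). DESeq2 called 6 members higher and 7 lower at an adjusted p under 0.05, against 7.93% of all genes higher and 9.88% lower, whereas limma-voom and limma on log2 TPM called 0. At an unadjusted p under 0.05, edgeR gave 10 of the 64 members higher and 10 lower (15.6% each). The shares over all genes tested were 16.5% higher and 15.6% lower, so members as a whole were called about as often as other genes. The split depended on the scaling: there were 13 members higher and 6 lower with no scaling factors (15.3% and 16.0% of all genes), 13 and 13 with DESeq2 (11.5% and 14.4% of all genes), and 7 and 15 on log2(TPM + 1) (11.3% and 22.4% of all genes). At an adjusted p under 0.10 there were 5 members higher, namely Hspa1a, Hspb1, Dnaja4, Dnajc4 and Dnajb5 (8.53% of all genes), and 5 lower, namely Hspa14, Hspa4l, Dnajc10, Dnajb9 and Dnajc6 (6.69% of all genes). The CPM values of the groups did not overlap for 24 members higher and 20 lower in the cKO-labelled libraries, against 34.8% and 32.9% of all genes. Fold changes are given as cKO minus fl/fl on the log2 scale, and their median was 0.05 over the 64 members and 0.00 over all genes. Of these 20 members, Hspa1a, Hspb1, Hspa4l, Hspa14, Dnajc6 and Dnajc10 kept an unadjusted p under 0.05 whichever library was left out and with a replicate block. With 1 library left out, fewer members fell below that threshold in every case, and so did a smaller share of all genes. Separate animals are not stated for the libraries of a group, so p-values reflect the spread of these samples alone, and that spread may be technical. Adjusted p-values of single genes are from the edgeR test, over all genes tested.

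**Figure D1:**
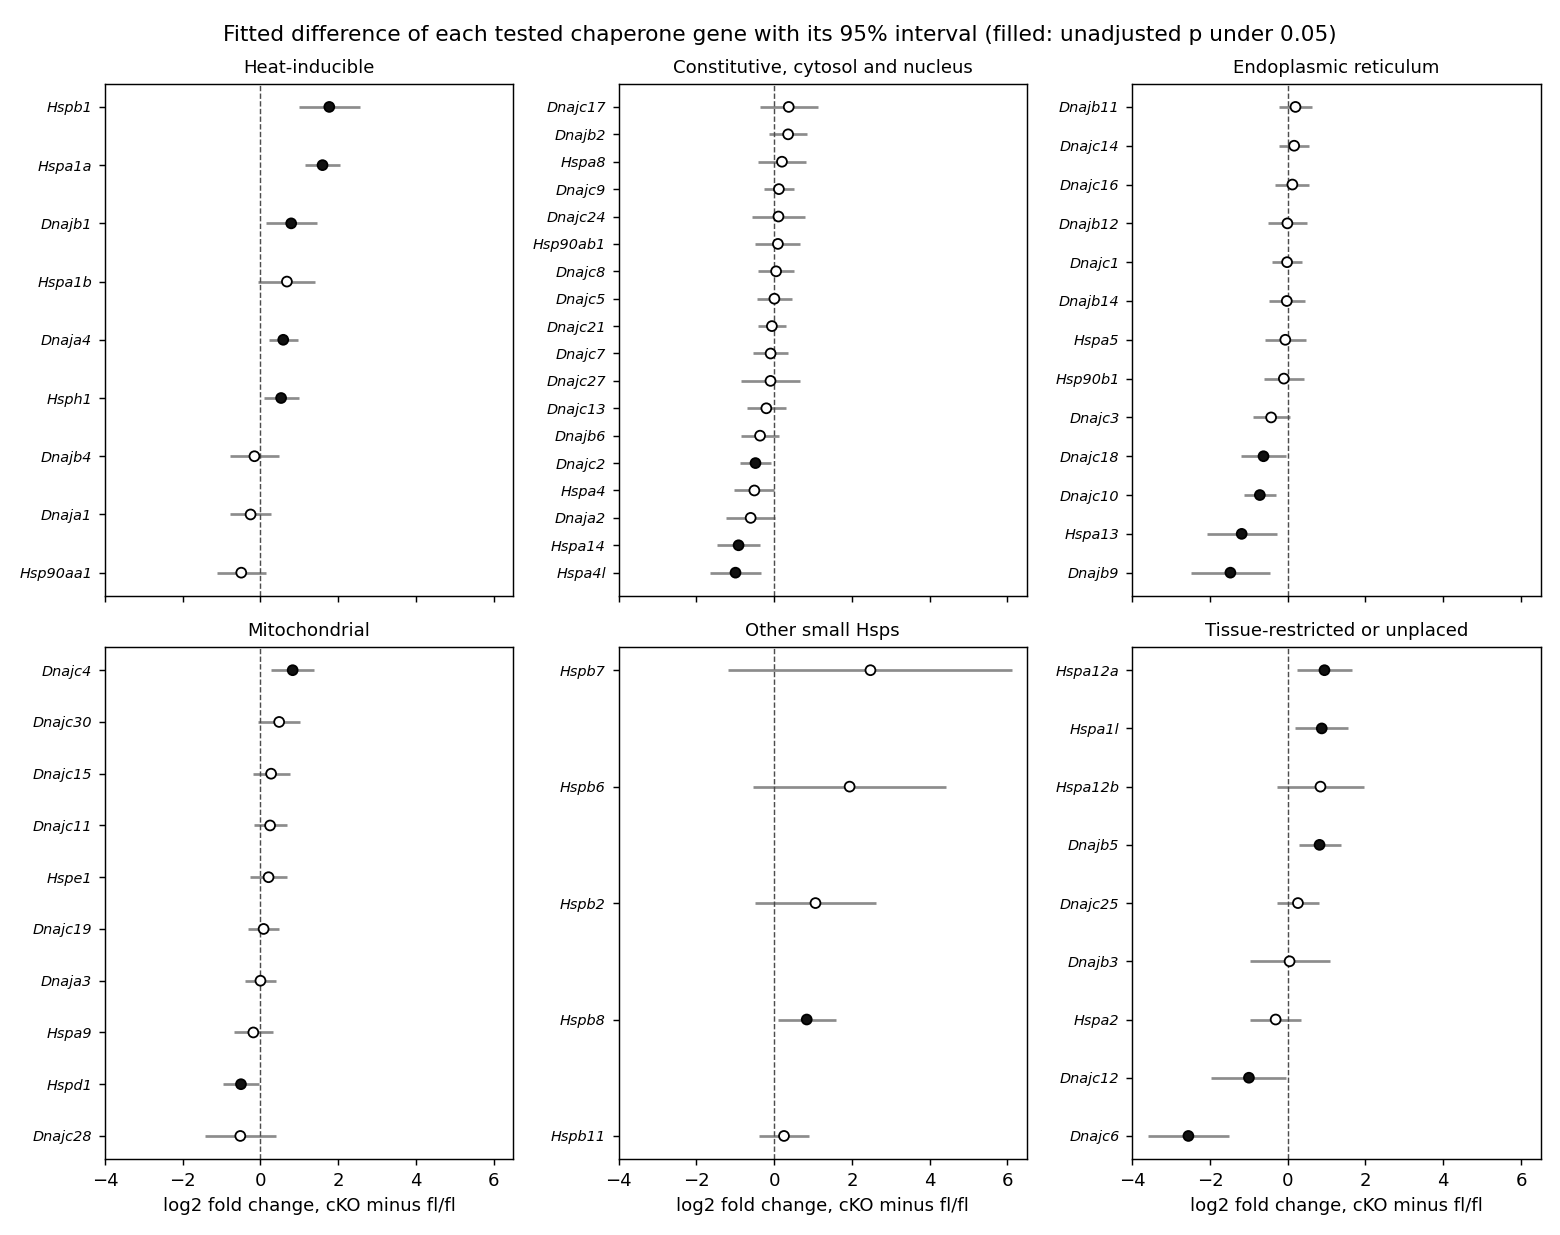
Fitted log2 fold change (cKO minus fl/fl, horizontal axis) of the 64 tested chaperone genes with its 95% interval, in 6 panels by class; filled points have an unadjusted p under 0.05. Filled points lie right of 0 for 5 of 9 heat-inducible genes and 1 of 5 other small Hsps. They lie left of 0 for 3 of 18 constitutive and 4 of 13 endoplasmic reticulum genes. Both sides hold filled points in the mitochondrial panel (1 right and 1 left of 10) and the tissue-restricted or unplaced panel (3 right and 2 left of 9). By the same rule, 16.5% of all genes would lie right and 15.6% left.

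The heat-inducible class leaned upward but split. Its median log2 fold change was 0.58, and the 2 cKO-labelled libraries had medians of 0.65 (replicate 1) and 0.50 (replicate 2) relative to the fl/fl mean. All 9 members were tested, and at an unadjusted p under 0.05 there were 5 higher and 0 lower (16.5% and 15.6% of all genes). Groups did not overlap for 6 members higher and 2 lower (34.8% and 32.9% of all genes), and they overlapped for 1. The class was assigned from general knowledge of heat induction, but with earlier results of these data known. Its lean is therefore a description and not an independent result.

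Hspa1a stood at 149 and 155 CPM in the cKO-labelled libraries, against 46.3 and 54.4 CPM in the fl/fl libraries. Both cKO-labelled libraries lay about equally far above both fl/fl libraries. The log2 fold change was 1.59 ± 0.18 (SE), a fold of 3.02 with a 95% interval of 2.20 to 4.15 (adjusted p = 0.0656). It was the member with the smallest p. Its neighbour Hspa1b stood at 319 and 296 CPM in the cKO-labelled libraries against 235 and 148 CPM in the fl/fl libraries, with no overlap but a wide gap between the fl/fl libraries (log2 fold change 0.68 ± 0.28, adjusted p = 0.172). Leaving out fl/fl replicate 1 gave 1.05, and leaving out fl/fl replicate 2 gave 0.36. The sequences of both genes are nearly the same, and their deposited counts are partly not whole numbers, so the split of reads between them is an estimate. Summed to 1 row, they stood at 467 and 451 CPM in the cKO-labelled libraries against 282 and 203 CPM in the fl/fl libraries, a log2 fold change of 0.92 ± 0.24 (adjusted p = 0.0959).

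Hspb1 (Hsp25 in mouse, Hsp27 in human), the small Hsp that binds unfolded proteins and actin filaments, had the largest fitted difference of the class. It stood at 653 and 404 CPM in the cKO-labelled libraries against 149 and 161 CPM in the fl/fl libraries. Both cKO-labelled libraries were above both fl/fl libraries, and replicate 1 was the higher of them. The log2 fold change was 1.77 ± 0.30 (adjusted p = 0.0724), a fold of 3.41 with a 95% interval of 1.98 to 5.85. Dnajb1, the main stress-induced DnaJ partner of cytosolic Hsp70, showed the same order of libraries, at 243 and 168 CPM in the cKO-labelled libraries against 110.1 and 128 CPM in the fl/fl libraries (0.79 ± 0.25, adjusted p = 0.120), and 0.50 without cKO replicate 1. The immediate early genes, which respond within minutes to stress and handling, also had their highest sum in cKO replicate 1. The 19 genes of that list summed to 2832 and 1549 TPM in the cKO-labelled libraries, against 1263 and 1257 TPM in the fl/fl libraries. Egr3 was highest in fl/fl replicate 1 (549 CPM, and 273 CPM in cKO replicate 1). Ier3 was highest in fl/fl replicate 2 (31.6 CPM, and 31.1 CPM in cKO replicate 1). The part of the immediate early genes in these differences was not tested.

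Hsph1, the inducible Hsp110 that exchanges the nucleotide of Hsp70, stood at 151 and 131 CPM in the cKO-labelled libraries against 97.6 and 97.4 CPM in the fl/fl libraries (0.53 ± 0.17, adjusted p = 0.124). Dnaja4, a DnaJ protein of the type A family, stood at 69.6 and 63.7 CPM against 44.5 and 44.4 CPM in the same order of groups (0.58 ± 0.14, adjusted p = 0.0897). For both genes the groups did not overlap and the fl/fl libraries were nearly equal. The remaining heat-inducible members lay on the other side. Hsp90aa1, the inducible cytosolic Hsp90, stood at 482 and 489 CPM in the cKO-labelled libraries against 790.5 and 577 CPM in the fl/fl libraries (-0.49 ± 0.24, adjusted p = 0.219, and -0.25 without fl/fl replicate 1). The cKO-labelled libraries were nearly equal and below both fl/fl libraries, of which replicate 1 was much the higher. Dnaja1, a farnesylated type A DnaJ protein, stood at 294 and 256 CPM against 353 and 303 CPM (-0.26 ± 0.20, adjusted p = 0.409). Dnajb4, a type B relative of Dnajb1, stood at 52.1 and 59.9 CPM against 75.1 and 49.7 CPM, so its groups overlapped (-0.16 ± 0.24, adjusted p = 0.668).

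**Figure D2:**
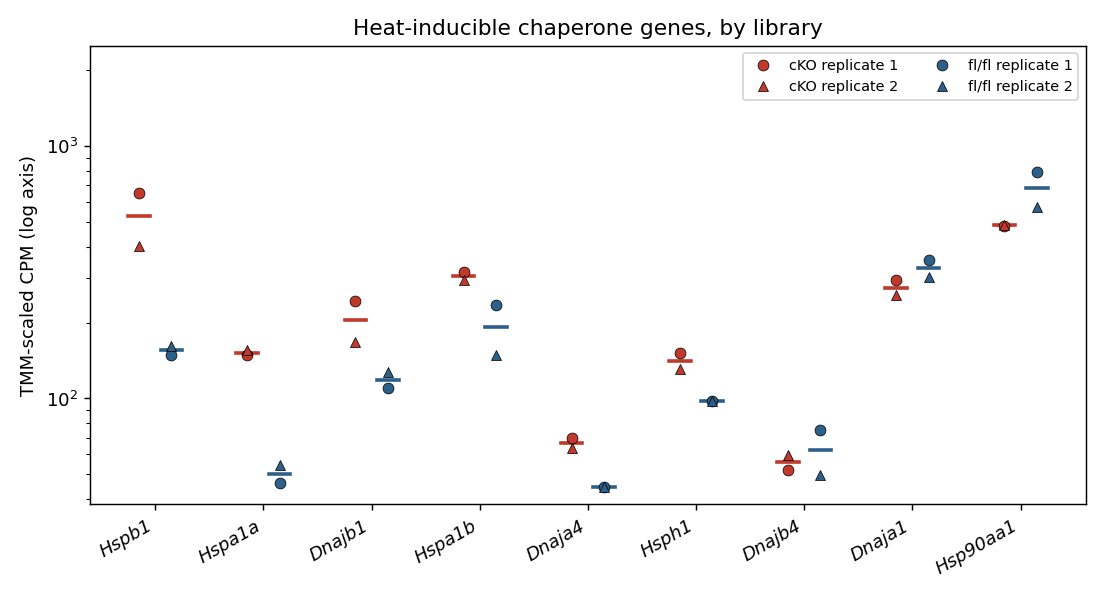
TMM-scaled CPM (log axis) of the 9 heat-inducible genes in each library, with cKO-labelled libraries (red) left of fl/fl libraries (blue) for each gene; circles are replicate 1, triangles replicate 2 and bars the group means. For Hspb1 and Hspa1a both red points lie far above the blue ones (653 and 404 CPM against 149 and 161 CPM for Hspb1), whereas for Hsp90aa1 and Dnaja1 they lie below.

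The constitutive members of cytosol and nucleus centred near 0 (median -0.07 over 18 tested). At an unadjusted p under 0.05 there were 0 higher and 3 lower, against 16.5% and 15.6% of all genes. For the 2 most abundant, Hspa8 and Hsp90ab1, the groups overlapped. Hspa8, the constitutive Hsp70 (Hsc70), stood at 2399 and 2040.4 CPM in the cKO-labelled libraries against 1771 and 2089 CPM in the fl/fl libraries (0.20 ± 0.24, 95% interval of the fold 0.745 to 1.78). Hsp90ab1 stood at 1255 and 1051 CPM against 1059 and 1097 CPM (0.10 ± 0.22, 95% interval of the fold 0.717 to 1.60), and its sign turned with 1 library left out and on TPM.

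The 3 members lower at an unadjusted p under 0.05 were Hspa4l, Hspa14 and Dnajc2. Hspa4l, a constitutive Hsp110 protein, stood at 57.1 and 63.1 CPM in the cKO-labelled libraries against 144 and 95.5 CPM in the fl/fl libraries (-0.99 ± 0.25, adjusted p = 0.0926). Hspa14 and Dnajc2 encode the Hsp70 and the DnaJ partner of the complex that sits on ribosomes and meets nascent chains. Hspa14 stood at 39.6 and 28.0 CPM against 61.3 and 66.2 CPM (-0.91 ± 0.21, adjusted p = 0.0866), and Dnajc2 at 40.8 and 47.6 CPM against 62.3 and 60.9 CPM (-0.48 ± 0.15, adjusted p = 0.121). None of these 3 genes had overlapping groups. Hspa4, the relative of Hspa4l, stood at 238 and 224 CPM against 354 and 302 CPM (-0.51 ± 0.20, adjusted p = 0.158). Dnaja2, the constitutive type A DnaJ partner of Hspa8, stood at 165 and 180.0 CPM against 306 and 218 CPM (-0.60 ± 0.24, adjusted p = 0.163, and -0.34 without fl/fl replicate 1), with fl/fl replicate 1 again the highest library. Dnajb6, a chaperone that holds back protein aggregation, stood at 133 and 149 CPM against 195 and 168 CPM (-0.36 ± 0.19, adjusted p = 0.240).

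The abundant Dnajc7, a co-chaperone with tetratricopeptide repeats that contacts both Hsp70 and Hsp90, stood at 119 and 121 CPM in the cKO-labelled libraries against 120.2 and 135 CPM in the fl/fl libraries. Dnajc8, found in spliceosomes, stood at 108 and 109 CPM against 95.5 and 114 CPM. The remaining members of this class, Dnajb2, Dnajc5, Dnajc9, Dnajc13, Dnajc17, Dnajc21, Dnajc24 and Dnajc27, had log2 fold changes between -0.20 and 0.38, and none had an unadjusted p under 0.05. They serve, in the order named, in neuronal protein quality control, vesicle release, histone supply, endosomal sorting, splicing, ribosome biogenesis, the modification of elongation factor 2 and, for Dnajc27, as a small GTPase-like protein.

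Ratios between related genes within a library do not depend on the scaling between libraries, although they keep any effect of fragment length. The TPM of Hspa1a over that of Hspa8 was 0.0452 and 0.0552 in the cKO-labelled libraries against 0.0189 and 0.0188 in the fl/fl libraries. For the more abundant copy, Hspa1b over Hspa8 was 0.0965 and 0.104 against 0.0956 and 0.0511, nearly equal in replicate 1 of both groups. Hsph1 over Hspa4, the inducible over the constitutive Hsp110, was 0.863 and 0.795 against 0.376 and 0.439. Dnajb1 over Dnaja1 was 0.939 and 0.746 against 0.355 and 0.479. Hsp90aa1 over Hsp90ab1 went the other way, at 0.333 and 0.403 in the cKO-labelled libraries against 0.646 and 0.455 in the fl/fl libraries. The groups did not overlap for any of these ratios, which are descriptions of 2 libraries per group.

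**Figure D3:**
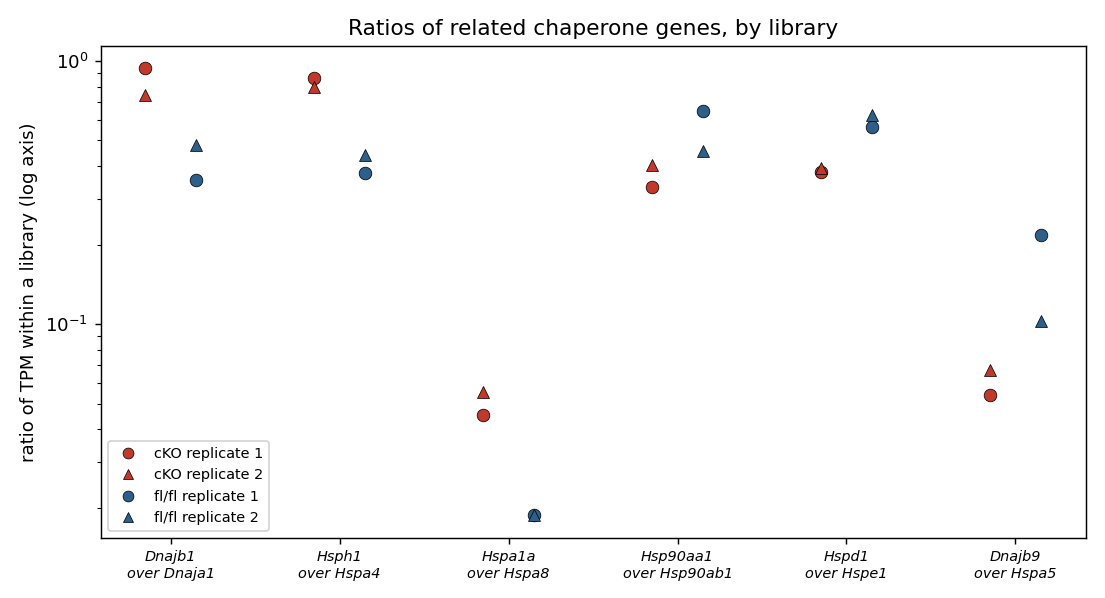
Ratio of TPM within each library (log axis) for 6 pairs of related chaperone genes, with cKO-labelled libraries (red) left of fl/fl libraries (blue); circles are replicate 1 and triangles replicate 2. The red points lie above the blue ones for Dnajb1 over Dnaja1, Hsph1 over Hspa4 and Hspa1a over Hspa8, and below them for the other 3 pairs.

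In the endoplasmic reticulum, the major chaperones lay near 0 and several co-chaperones lower. All 13 members were tested, with a median log2 fold change of -0.06. At an unadjusted p under 0.05 there were 0 higher and 4 lower, against 16.5% and 15.6% of all genes. Hspa5, the Hsp70 of this compartment and sensor partner of the unfolded protein response, stood at 724 and 664 CPM in the cKO-labelled libraries against 729.9 and 719 CPM in the fl/fl libraries (-0.06 ± 0.20, 95% interval of the fold 0.667 to 1.38). Hsp90b1 stood at 633 and 628 CPM against 682 and 669 CPM (-0.10 ± 0.19, 95% interval of the fold 0.657 to 1.33). Dnajb11 (ERdj3), the soluble DnaJ partner of Hspa5, stood at 98.8 and 101 CPM against 81.5 and 92.7 CPM (0.20 ± 0.16, adjusted p = 0.414).

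Dnajb9 (ERdj4), a DnaJ protein that brings Hspa5 to the stress sensor IRE1, stood at 27.6 and 31.3 CPM in the cKO-labelled libraries against 112 and 52.0 CPM in the fl/fl libraries (-1.47 ± 0.39, adjusted p = 0.0986). Hspa13, an Hsp70-like protein with the ATPase domain alone, stood at 32.6 and 39.7 CPM against 108 and 56.5 CPM (-1.18 ± 0.35, adjusted p = 0.109). In both genes fl/fl replicate 1 was by far the highest library, and fl/fl replicate 2 lay nearer to the cKO-labelled ones. Without fl/fl replicate 1 the log2 fold changes were -0.82 for Dnajb9 and -0.65 for Hspa13. The TPM of Dnajb9 over that of Hspa5 was 0.0539 and 0.0673 in the cKO-labelled libraries against 0.219 and 0.103 in the fl/fl libraries. Dnajc10 (ERdj5), which reduces disulfide bonds of proteins bound for degradation, was steadier, at 54.3 and 55.3 CPM in the cKO-labelled libraries against 97.3 and 82.9 CPM in the fl/fl libraries (-0.72 ± 0.16, adjusted p = 0.0827). Dnajc18, a DnaJ protein of the membrane, stood at 11.8 and 8.97 CPM against 15.7 and 16.3 CPM (-0.62 ± 0.23, adjusted p = 0.146). Dnajc3 (p58IPK), a partner of Hspa5 that also inhibits the kinase PERK, stood at 120.2 and 124 CPM against 178 and 150.4 CPM (-0.43 ± 0.18, adjusted p = 0.180). The other 5 members, Dnajb12, Dnajb14, Dnajc1, Dnajc14 and Dnajc16, had log2 fold changes between -0.02 and 0.17.

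Mitochondrial members went both ways, with a median of 0.14. At that threshold 1 of 10 was higher and 1 lower, against 16.5% and 15.6% of all genes. Hspd1 (Hsp60), the chaperonin of the matrix, stood at 226 and 222 CPM in the cKO-labelled libraries against 320.1 and 316 CPM in the fl/fl libraries (-0.50 ± 0.18, adjusted p = 0.142). Its co-chaperonin Hspe1 (Hsp10), transcribed from the same promoter region, stood at 151 and 135 CPM against 132 and 116 CPM (0.21 ± 0.18, adjusted p = 0.444). The TPM of Hspd1 over that of Hspe1 was 0.380 and 0.392 in the cKO-labelled libraries against 0.561 and 0.623 in the fl/fl libraries. On log2(TPM + 1) the fold change of Hspe1 turned to -0.0762, whereas that of Hspd1 was -0.69. Hspa9 (mortalin), the Hsp70 of the matrix, stood at 234 and 258 CPM against 264 and 295 CPM (-0.18 ± 0.19, adjusted p = 0.517). Dnajc4, a DnaJ protein reported in mitochondria, stood at 19.4 and 18.1 CPM against 9.44 and 11.7 CPM (0.83 ± 0.21, adjusted p = 0.0934). The other 6 members, Dnaja3, Dnajc11, Dnajc15, Dnajc19, Dnajc28 and Dnajc30, had log2 fold changes between -0.52 and 0.48. The mitochondrial median of 0.14 was -0.07 on log2(TPM + 1), a scale on which the median of all genes was -0.16.

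Besides Hspb1, the small Hsps stood high in different libraries, Hspb8 in cKO replicate 1 and the muscle members in cKO replicate 2. Hspb8, which works with Bag3 in selective autophagy, stood at 253 and 153 CPM in the cKO-labelled libraries against 114 and 114 CPM in the fl/fl libraries (0.84 ± 0.29, adjusted p = 0.135), with cKO replicate 1 the highest as for Hspb1. Without cKO replicate 1 it was 0.43. Hspb6 (Hsp20), Hspb7 and Hspb2 are small Hsps of striated and smooth muscle. Hspb6 stood at 3.54 and 27.4 CPM against 3.67 and 4.36 CPM, and Hspb7 at 0.408 and 11.0 CPM against 0.747 and 1.28 CPM. Only cKO replicate 2 was high for these 2 genes, and the groups overlapped. Hspb2 stood at 0.884 and 2.11 CPM against 0.543 and 0.873 CPM. The fitted log2 fold changes of 1.94 ± 0.95 for Hspb6 and 2.48 ± 1.4 for Hspb7 became -0.18 and -1.31 without cKO replicate 2, and that of Hspb2 moved from 1.06 to 0.31. Skeletal muscle genes stood highest in the same library, all 14 of the list except Myh4, which had 7.85 CPM there against 14.8 and 13.9 CPM in the fl/fl libraries. Their sum was 81.8 and 2390.2 TPM in the cKO-labelled libraries against 155 and 191 TPM in the fl/fl libraries. The class median of 1.06 over 5 tested members was 0.07 without cKO replicate 2. Hspb11, a part of the intraflagellar transport complex of cilia, stood at 8.16 and 10.4 CPM against 7.20 and 8.32 CPM. Hspb3, another muscle member, was counted 0 and 8 times in the cKO-labelled libraries against 2 and 1 in the fl/fl libraries, and Hspb9 had 5 and 0 counts against 0 and 1. Both were too low to test.

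**Figure D4:**
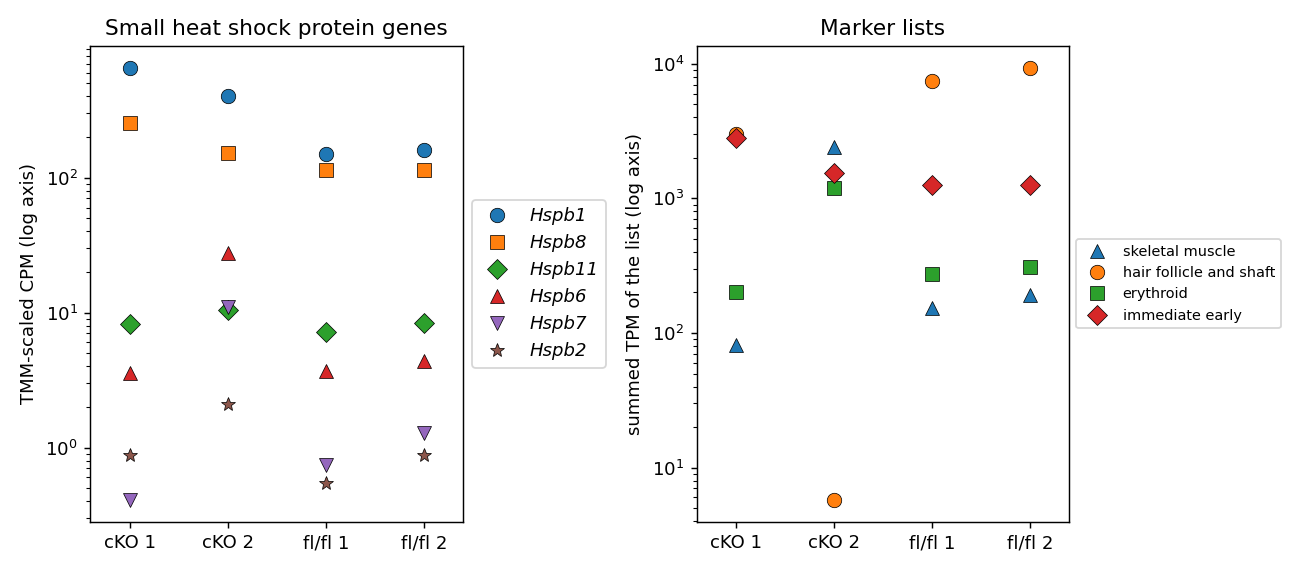
Left, TMM-scaled CPM (log axis) of 6 small Hsp genes in each library; right, summed TPM (log axis) of 4 marker lists in the same libraries. Hspb1 and Hspb8 are highest in cKO replicate 1, whereas Hspb6 and Hspb7 are high in cKO replicate 2 alone, where skeletal muscle genes reach 2390.2 TPM and hair genes 5.74 TPM.

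Among the members that are tissue-restricted or not placed in a compartment, 9 were tested. An unadjusted p under 0.05 was reached by 3 that were higher and 2 that were lower, against 16.5% and 15.6% of all genes. Dnajc6 (auxilin), which strips clathrin from vesicles and is known mainly from neurons, had the lowest fold change of all members. It stood at 3.74 and 1.98 CPM in the cKO-labelled libraries against 19.6 and 14.0 CPM in the fl/fl libraries (-2.55 ± 0.40, adjusted p = 0.0691), a fold of 0.170 with a 95% interval of 0.0825 to 0.352. Hair follicle and shaft genes were lower in the same libraries, at 2998 and 5.74 TPM against 7487 and 9382 TPM, and their part was not tested. Dnajb5, a type B DnaJ protein, stood at 23.5 and 21.7 CPM against 11.3 and 14.3 CPM (0.82 ± 0.21, adjusted p = 0.0938). Hspa12a, a distant Hsp70 relative, stood at 34.6 and 56.0 CPM against 23.2 and 23.9 CPM (0.94 ± 0.27, adjusted p = 0.106) and at 0.56 on the log2 scale without cKO replicate 2. Its relative Hspa12b, known from endothelium, stood at 3.54 and 5.08 CPM against 1.70 and 3.08 CPM (0.84 ± 0.43, adjusted p = 0.230, and 0.48 without fl/fl replicate 1). Hspa1l, a testis-enriched neighbour of Hspa1a, stood at 6.87 and 7.19 CPM against 3.46 and 4.19 CPM (0.87 ± 0.26, adjusted p = 0.113), and its deposited counts are partly not whole. Dnajc12 stood at 1.5 and 1.06 CPM against 2.79 and 2.33 CPM (-0.997 ± 0.37, adjusted p = 0.149), and the testis-enriched Hspa2 at 21.0 and 14.8 CPM against 24.7 and 19.7 CPM. Dnajb3 and Dnajc25 were at 0.05 and 0.26 on the log2 scale. Dnajb13, a protein of sperm tails and cilia, was counted 2 and 2 times in the cKO-labelled libraries against 1 and 4 in the fl/fl libraries. Dnajb7 had 1 and 1 against 1 and 0, and Dnajc22 had 0 and 0 against 1 and 2. These 3 genes were too low to test.

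Genes around the chaperones were read from 7 further lists. Counts for these lists again use an unadjusted p under 0.05, at which 16.5% of all genes were higher and 15.6% lower. Of 5 heat shock factors and regulators tested, 2 were higher and 0 lower. Hsf1, the main regulator of the heat-inducible genes, stood at 36.1 and 30.2 CPM in the cKO-labelled libraries against 21.5 and 22.6 CPM in the fl/fl libraries (0.59 ± 0.17, adjusted p = 0.111). Hsf2, a second factor of the family, stood at 53.7 and 73.2 CPM against 39.4 and 26.6 CPM (0.94 ± 0.27, adjusted p = 0.107). Hsbp1, a binding protein of HSF1, overlapped between groups, and Hsf4 was at -0.56 ± 0.39.

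Of 29 co-chaperones of Hsp70 and Hsp90, 4 were higher and 1 lower (16.5% and 15.6% of all genes), with a median of 0.26. Stub1 (CHIP), the ubiquitin ligase that binds Hsp70 and Hsp90, stood at 90.7 and 84.4 CPM in the cKO-labelled libraries against 53.9 and 58.2 CPM in the fl/fl libraries (0.64 ± 0.15, adjusted p = 0.0862). Bag2, which inhibits it, stood at 9.66 and 3.50 CPM against 18.9 and 19.7 CPM (-1.55 ± 0.50, adjusted p = 0.122, and -0.999 without cKO replicate 2). Tomm34, a link between Hsp70 and mitochondrial import, was at 0.53 ± 0.17, and Unc45b, the myosin chaperone of muscle, at 1.60 ± 0.46 with its highest CPM, 5.01, in cKO replicate 2 and a fold change of 1.05 without it. Of 14 subunits of the chaperonin TRiC and of prefoldin, 1 was higher and 1 lower, with a median of -0.06. The prefoldin subunit Pfdn5 was at 0.85 ± 0.21 (adjusted p = 0.0918) and its partner Pfdn6 at 0.54 ± 0.22 (0.27 without cKO replicate 1), whereas the prefoldin subunit Vbp1 was at -1.39 ± 0.50 (adjusted p = 0.142, and -0.57 without fl/fl replicate 1) and the chaperonin subunit Cct6a at -0.37 ± 0.18.

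Among 25 genes of the endoplasmic reticulum stress response, 5 were higher and 1 lower, with a median of 0.17. Herpud1, a part of the degradation machinery of this compartment, stood at 133 and 138 CPM in the cKO-labelled libraries against 67.4 and 74.4 CPM in the fl/fl libraries (0.93 ± 0.16, adjusted p = 0.0733). Ddit3 (CHOP), a transcription factor of the stress response, was at 0.83 ± 0.21, the stress-induced Creld2 at 0.74 ± 0.21 (0.49 without cKO replicate 1), and the ubiquitin ligase Syvn1 at 0.57 ± 0.15. The other one was Sdf2l1, a partner of Dnajb11, at 0.78 ± 0.26. The lower one was Atf6, the stress sensor and transcription factor, at 45.8 and 36.2 CPM against 57.7 and 60.2 CPM (-0.52 ± 0.17, adjusted p = 0.128). Of the 25 genes 16 had a positive fold change and 9 a negative one. The groups did not overlap, with cKO higher, for 13 of them (34.8% of all genes). With cKO lower they did not overlap for 6 (32.9% of all genes), namely Canx, Edem1, Sel1l, Sec63 and Serp1 besides Atf6. Apart from Herpud1, Ddit3, Syvn1 and Creld2, these genes were named after their values were seen. Of 13 genes of mitochondrial protein quality control, 3 were higher and 1 lower, with a median of 0.28. The proteases Htra2 (0.70 ± 0.22) and Spg7 (0.57 ± 0.19, and 0.37 without fl/fl replicate 1) and the DnaJ-like iron-sulfur co-chaperone Hscb (0.75 ± 0.27) were the higher ones, and the protease Yme1l1 the lower one (-1.21 ± 0.39, and -0.59 without fl/fl replicate 1).

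Of 10 crystallin and other stress genes, 1 was higher and 1 lower. The higher one was the alpha-crystallin gene Cryaa, a small Hsp relative known from the lens, at 1.29 and 1.32 CPM in the cKO-labelled libraries against 0.204 and 0.407 CPM in the fl/fl libraries. The lower one was the thioredoxin reductase gene Txnrd1, at 136 and 96.9 CPM against 193 and 173 CPM (-0.65 ± 0.24, adjusted p = 0.144, and -0.43 without cKO replicate 2). The autophagy receptor gene Sqstm1 was at 0.44 ± 0.17 and the sulfiredoxin gene Srxn1 at -0.39 ± 0.17. Of 19 immediate early genes, 11 were higher and 0 lower, with a median of 1.03. The phosphatase gene Dusp1 stood at 388 and 254 CPM in the cKO-labelled libraries against 108 and 124 CPM in the fl/fl libraries (1.47 ± 0.28, adjusted p = 0.0740), and Ier2, Zfp36 and Myc were at 1.51 ± 0.38, 1.26 ± 0.32 and 0.76 ± 0.17. Without cKO replicate 1, Ier2 was at 0.93. The library medians of this list, relative to the fl/fl mean, were 1.29 (cKO replicate 1) and 0.44 (cKO replicate 2), against 0.65 and 0.50 for the heat-inducible class.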

How the data were processed

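RNA enriched with oligo(dT) beads was sequenced from 4 mouse epidermis libraries, 2 per group, grouped by sample title. Tools named in the submitters' processing notes, with no role, are Bowtie2 (2.3.4.3), RSEM (1.3.1) and DESeq2 (1.4.5), and the genome build is GRCm39. Strandedness is not stated. Estimated counts per gene were deposited without normalization, and the share of them that is not a whole number ran from 11.05% to 13.02% by library. The authors also deposited TPM, used here for levels between genes, and FPKM and a scaled count signal, which were not used.

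The counts, rounded, were fitted in edgeR (4.0.16, with limma 3.58.1 under R 4.3.3) by quasi-likelihood, using TMM factors and filterByExpr and a model of group alone. That fit covered 14459 genes, with 2 residual and 2.79 prior degrees of freedom and a biological coefficient of variation of 0.269, and was tested on simulated data. Benjamini-Hochberg adjustment ran over all of them, and 95% intervals of a fold use the fitted error. Members, classes and lists were chosen with earlier results of these data known, so lists are given as counts and medians with no set test. The text names all detected heat-inducible and Hsp members, the Dnaj members with the smallest p under 0.05 (up to 8 per direction) or the highest TPM (5), and up to 4 genes per further list. Other members are named for completeness. Alternatives were other scaling, other filters, DESeq2 (1.42.0), limma-voom, limma on log2(TPM + 1) and log2(TPM + 0.1), a replicate block, each library left out, and Hspa1a and Hspa1b summed. Where a group is left with 1 library, that library is assumed to vary like the others.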

Additional observations from a re-analysis of the deposited data

How the results depend on the processing

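The number of members called depended on the tool and the libraries. At an unadjusted p under 0.05, the 10 higher members were 6 with the replicate block, 13 with no scaling factors or DESeq2, 7 on either TPM scale and 4 to 10 with 1 library left out. The 10 lower members were 6 with the replicate block, 6 with no scaling factors, 13 with DESeq2, 15 on either TPM scale and 5 to 8 with 1 library left out. The replicate block also lowered the shares over all genes, to 10.4% higher and 11.4% lower, from 16.5% and 15.6%. With 1 library left out, a smaller share of all genes was called in every case too. The lower counts in these fits were therefore not particular to the members. The labels do not say that equal replicate numbers pair the libraries, and the correlation of same-numbered deviations was -0.13. With the numbers crossed, an alternative chosen after seeing the data, 20 members were called, 19 of them called without it. Of all genes, 17.4% were then higher and 20.0% lower at the same threshold. Past an adjusted p of 0.05 there were 0 members, but 5 with no scaling factors (9.4% of all genes), 13 with DESeq2 (17.8% of all genes), 10 at a threshold of 0.10, and 0 to 5 with 1 library left out (5 without cKO replicate 1, where 5.97% of all genes passed).

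Class medians kept their direction except for the mitochondrial class, whose 0.14 became -0.0665 and -0.067 on the TPM scales. The median over all genes was -0.16 on log2(TPM + 1) and -0.18 on log2(TPM + 0.1). On these scales, in that order, the heat-inducible median of 0.58 was 0.39 and 0.40, the constitutive one of -0.07 was -0.20 and -0.20, the endoplasmic reticulum one of -0.06 was -0.25 and -0.25, and that of the tissue-restricted members, 0.26, was 0.0923 and 0.10. The constitutive median was -0.11 with median-of-ratios factors, -0.0245 with no scaling factors and -0.11 with DESeq2, and the tissue-restricted one 0.23, 0.31 and 0.12, and 0.15 with no filter. With 1 library left out the medians ran from 0.50 to 0.65 (heat-inducible), -0.08 to -0.05 (constitutive), -0.13 to -0.0035 (endoplasmic reticulum), 0.08 to 0.19 (mitochondrial), 0.073 to 1.55 (other small Hsps) and 0.25 to 0.42 (tissue-restricted).

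Of 71 genes followed, 63 kept 1 direction under every alternative run. On log2(TPM + 1) and log2(TPM + 0.1) the sign turned for Hsp90ab1 (-0.0916 and -0.0917), Hspb11 (-0.11 on both), Hspe1 (-0.0762 and -0.0764), Dnajc8 (-0.15 and -0.16) and Hsbp1 (-0.0461 and -0.0464). With 1 library left out, Hsp90ab1 ran from -0.0367 to 0.22, Dnajc8 from -0.0771 to 0.17, Dnajb4 from -0.44 to 0.17, Hspb6 from -0.18 to 2.76 and Hspb7 from -1.31 to 3.42. The cause of these turns was not tested. Counts of 0 to 8 per library limit the 5 untested members.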
